A study of Homo sapiens with 21 samples.

Results

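The Krüppel-like factors (KLF) are transcription factors that carry 3 zinc fingers at their carboxyl end and bind GC-rich and CACCC letters near the starts of genes. Some members, such as KLF4, KLF5 and KLF6, mostly raise transcription through acetyltransferases, while KLF3 represses through the corepressor CtBP, and KLF9, KLF10, KLF11 and KLF13 repress through SIN3A. Many are short-lived, early responding genes, and in epithelia they balance proliferation against differentiation. KLF4 is also a reprogramming factor of pluripotent cells. The study asked whether metals activate the estrogen-related receptor beta (ESRRB) and with it KLF4. The question addressed here is whether KLF4 moved alone or with other members of its family.

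The 9 genes described, KLF2, KLF3, KLF4, KLF5, KLF6, KLF9, KLF10, KLF11 and KLF13, were found by symbol among the 58735 genes of the table. They were measured by RNA-seq in 21 libraries of MDA-MB-453, a human breast cancer cell line, as FPKM, a count of fragments per length of the gene and per size of the library. The 7 groups of 3 libraries were an untreated control, calcium (10 mM), cadmium (10 μM), the agonist GSK4716 (5 μM), diethylstilbestrol (DES, 10 μM), used as an antagonist, and either metal after DES. All treatments lasted 24 h, and in the combinations DES was added 3 h before the metal. Calcium and GSK4716 were given without serum, whereas cadmium was given with a little charcoal-stripped serum, and there was 1 control group, so medium and treatment cannot be told apart. DES and GSK4716 were dissolved in ethanol, and no ethanol control is described. The labels do not say whether the 3 libraries came from separate cultures, so the p-values measure the spread between libraries, which may be technical.

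Libraries held 14435925 to 28424805 fragments on genes (median 18314738). The KLF genes had from 67 (KLF13) to 19317 (KLF6) fragments in a library, and all 9 were above the filter used for testing (a mean of at least 0.5 FPKM). All 8 markers of luminal breast cancer cells were above that filter, whereas the summed level was at most 1.09 FPKM for 4 leukocyte markers, 1.77 FPKM for 3 basal epithelial markers and 0.543 FPKM for 3 endothelial markers. At these low levels the basal sum was 0.0667 to 0.202 FPKM in the control and higher in every library with calcium (0.318 to 0.644) or cadmium (0.532 to 1.77). The leukocyte sum was at most 0.04997 FPKM in the control and higher in every library with GSK4716 (0.0722 to 0.253), DES (0.141 to 1.09), DES and calcium (0.370 to 0.872) or DES and cadmium (0.117 to 0.227). The part of these shifts in the results was not tested. Of 4 fibroblast markers, COL1A1 alone was above the filter (mean 14.8 FPKM), and the summed level of the 4 was 10.5 to 12.1 FPKM in the control, 14.1 to 17.2 with calcium and 12.6 to 32.9 with DES. The share of fragments on mitochondrial genes was 7.70 to 8.19% in the control and lower in every library with calcium (4.88 to 7.55%), DES (3.47 to 4.96%), DES and calcium (4.34 to 5.17%) and DES and cadmium (1.97 to 5.31%). It was higher in every library with GSK4716 (8.20 to 8.84%) and overlapped the control with cadmium (7.36 to 9.75%). The share on the mitochondrial ribosomal RNA genes alone, MT-RNR1 and MT-RNR2, was 0.795 to 1.39% in the control and higher in every library with cadmium (1.41 to 2.01%), DES (1.69 to 2.45%) and DES and calcium (1.81 to 2.59%), and it overlapped the control with calcium, GSK4716 and DES and cadmium. The part of these shares in the results was not tested.

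The letters before the starts of 3 responding members are shown first, with some of the elements they hold in capitals and GC boxes left in lower case. Windows for 7 of the members, all but KLF3 and KLF10, were in the RefSeq table (GRCh38.p14), from 250 bases before to 50 bases after the start. These sequences are upstream of the start and are given 5′ to 3′ on the gene's strand. For KLF2 and KLF6, the members with the most FPKM in calcium, the stretch from 250 to 91 bases before the start is printed. KLF2, on the plus strand at chr19:16324576-16324735, has in capitals a MEF2 site followed by a metal response element core (MRE). KLF6, on the minus strand at chr10:3785300-3785459, has in capitals 2 CCAAT boxes with an MRE core between them and an E-box at the end. For KLF11, with a high level in DES, 30 bases around a full cyclic AMP response element (CRE) are printed with the CRE in capitals, from chr2:10044034-10044063 on the plus strand. In the deposited annotation KLF2 is the gene at chr19:16324817-16327874, KLF6 that at chr10:3775996-3785281 and KLF11 that at chr2:10042849-10054836, so the first 2 stretches are outside the gene and the KLF11 stretch, before its later RefSeq start, is inside the gene.
KLF2: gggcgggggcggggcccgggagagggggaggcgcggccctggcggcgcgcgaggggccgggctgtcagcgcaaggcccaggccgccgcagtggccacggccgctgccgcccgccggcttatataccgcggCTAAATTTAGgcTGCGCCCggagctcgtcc
KLF6: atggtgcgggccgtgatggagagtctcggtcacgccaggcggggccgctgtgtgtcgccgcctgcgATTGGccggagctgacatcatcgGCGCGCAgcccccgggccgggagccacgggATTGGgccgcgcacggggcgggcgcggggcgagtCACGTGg
KLF11: atttccagccaTGACGTCAccccggtcctg

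Motifs were matched as letters on both strands. The 7 members had 9 windows, 2 each for KLF5 and KLF11. A member was counted if any of its windows held the motif, whereas the shares are of single windows. Counts and shares are thus in unlike units, and a member with 2 windows had more room for a match. The MEF2 site was in the window of 1 of 7 members, KLF2, and in 0.572% of all 35116 windows. The CRE (TGACGTCA) was likewise found for 1 member, KLF11, in the later of its 2 windows, and in 1.85% of all windows. The GC box (GGGCGG), which KLF and SP proteins can bind, was found for 6 of 7 members and in 44.95% of all windows. The CACCC box (CCACCC), their other binding sequence, was found for 1 of 7 members, KLF13, and in 34.3% of all windows. The MRE core (TGCACNC or TGCGCNC) was found for 5 of 7 members and in 29.6% of all windows. The CCAAT box was found for 4 of 7 members and in 34.6% of all windows. The E-box (CACGTG) was found for KLF4, KLF6 and KLF11 and in 7.26% of all windows. No member window held the AP-1 site (TGANTCA), the CArG box or the heat shock element core (GAANNTTC). Of all windows only 7.71%, 1.29% and 6.77% held them, so their absence from so few windows shows little. In these GC-rich windows no MRE core overlapped a GC box, and a match of letters is not a bound site.

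The estrogen-related receptor response element (ERRE, TNAAGGTCA) was searched within 2000 bases of each start. It was found for 1 of the 7 members (9 starts), KLF4, and for 15.1% of all starts. This element is shown because it is the sequence the study's receptor reads. It is at chr9:107491118-107491126 on the plus strand, upstream of KLF4, which is read from the minus strand, and its centre is 1353 bases before the RefSeq start. KLF4 is at chr9:107484852-107490482 in the deposited annotation, so the element is outside the gene. The 29 bases around it, with the ERRE in capitals, are printed from the plus strand.
KLF4 ERRE: aaatggccagTAAAGGTCAaaggacaact

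In the control, KLF2 had the highest level of the 9 genes in each library. It is a factor best known from endothelial cells and resting T cells. Its levels in the control were 23.6, 23.5 and 86.9 FPKM, so the third library was far above the other two. KLF6 (10.3 ± 3.08 FPKM, SD, n = 3) and KLF3 (9.14 ± 0.321 FPKM) came next. KLF11 was at 5.84 ± 1.33 FPKM, KLF4 at 5.59 ± 1.81 FPKM and KLF10 at 4.31 ± 0.552 FPKM. KLF13 (1.69 ± 0.159 FPKM), KLF5 (1.35 ± 0.269 FPKM) and KLF9 (0.955 ± 0.106 FPKM) were low in the untreated cells. FPKM is per length, so these levels can be set side by side.

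**Figure D1:**
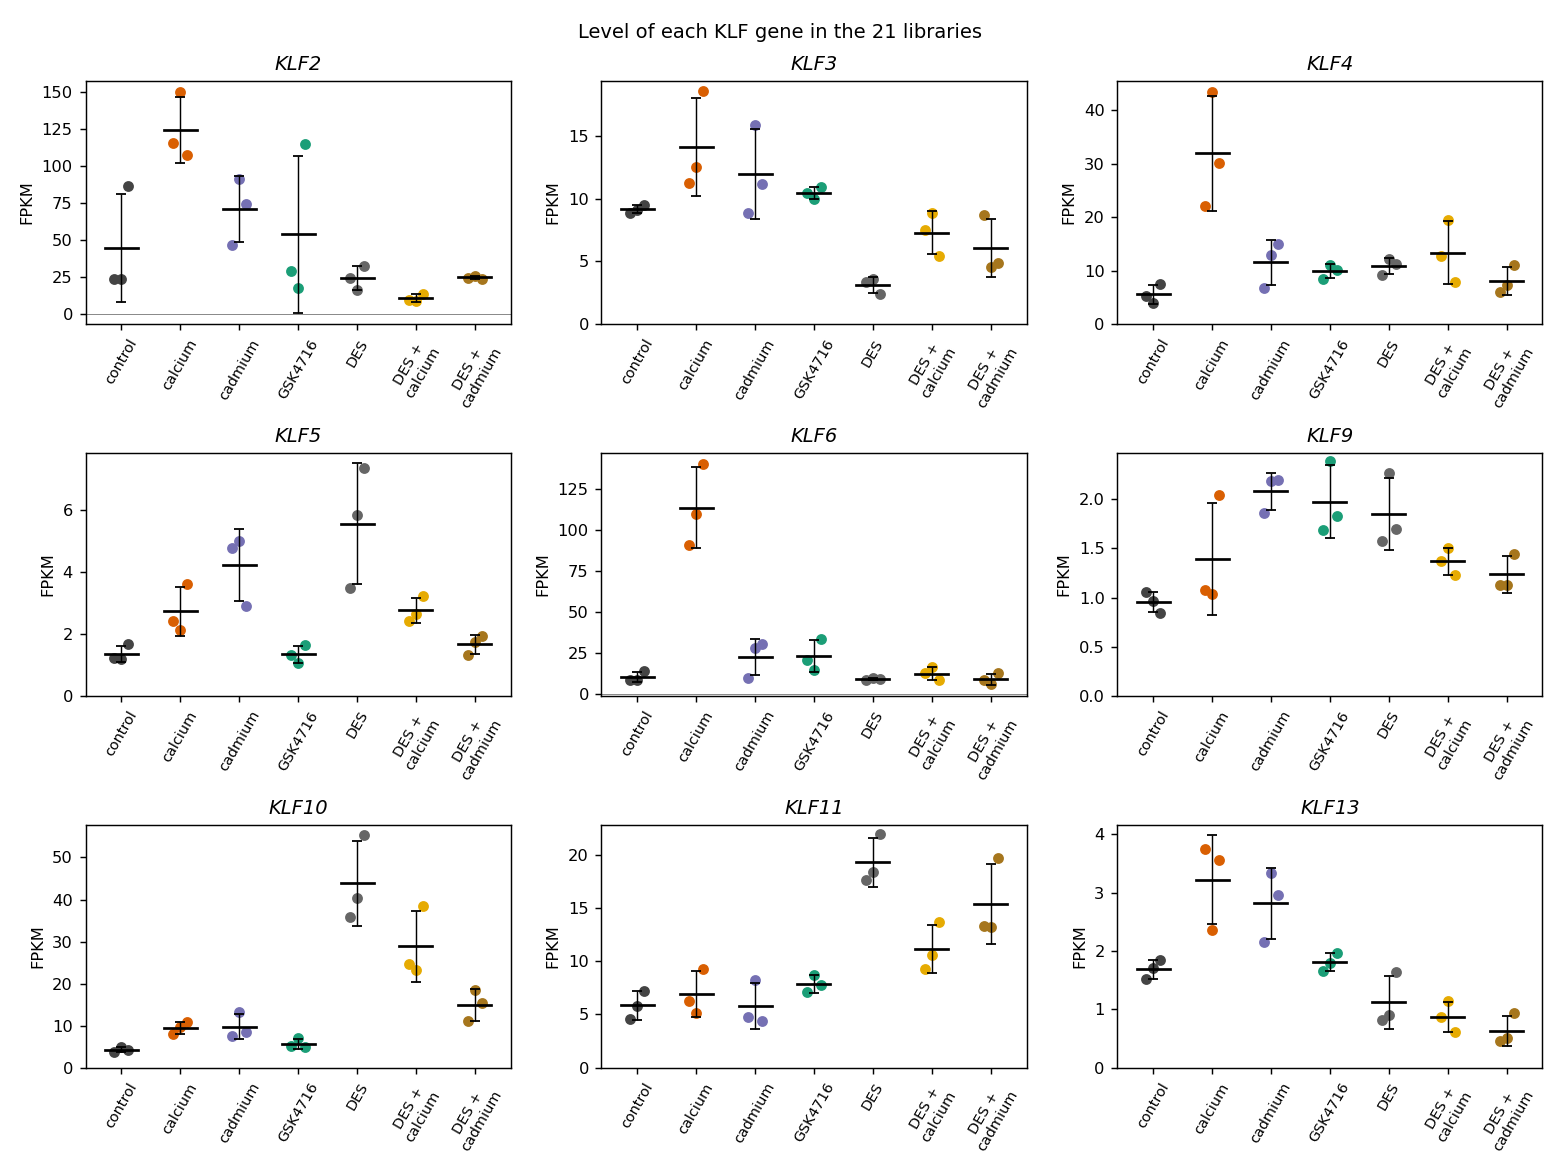
Level of each KLF gene in FPKM (vertical axes include 0, a scale for each gene) in the 7 groups; points are libraries, horizontal lines are group means and bars are the SD of 3 libraries. KLF4 and KLF6 stand highest in calcium, and KLF10 and KLF11 stand highest in the 3 groups with DES.

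Calcium raised KLF6, KLF4 and KLF10. KLF6, a widely expressed activator studied as a tumor suppressor, was at 8.70, 8.32 and 13.8 FPKM in the control and at 91.2, 109.7 and 141 FPKM with calcium. Each calcium library was above all libraries of the other groups, the highest of which was at 33.9 FPKM. The ratio of means was 11.1 and the log2 fold change of KLF6 on log2(FPKM + 0.1) was 3.47 ± 0.252 (SE; limma, adjusted p = 0.0083).

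KLF4 was at 5.29, 3.95 and 7.53 FPKM in the control and at 22.1, 43.5 and 30.2 FPKM with calcium. The groups did not overlap, the ratio of means was 5.71 and the log2 fold change was 2.49 ± 0.325 (SE; limma, adjusted p = 0.016). KLF10, an early gene of TGF-beta signaling, was at 3.80, 4.90 and 4.22 FPKM in the control and at 8.01, 9.63 and 10.8 FPKM with calcium. Its log2 fold change was 1.12 ± 0.171 (SE; limma, adjusted p = 0.0225). Of the 9 members, KLF6 had the largest log2 fold change and KLF4 the next.

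Of the 9 members 3 were called higher with calcium and 0 lower. Over all 14686 genes tested, 4.6% were called higher and 7.12% were called in either direction. All 9 members had a positive log2 fold change, with a median of 0.94, whereas the median over all genes was -0.01. For 7 of the 9 the calcium libraries were all above the control libraries, which held for 16% of all genes. Among the luminal markers KRT8 (1.79) and KRT18 (1.65) also rose, and the part of such shifts was not tested. The exceptions were KLF9 (log2 fold change 0.44 ± 0.314) and KLF11 (0.22 ± 0.274), whose groups overlapped.

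KLF2 did not pass the test in calcium. It was at 116, 149.9 and 107 FPKM there, all above the control, with a log2 fold change of 1.75 ± 0.527 (SE; limma, adjusted p = 0.11). The control library with 86.9 FPKM set this spread: without control replicate 3 the log2 fold change of KLF2 was 2.38 and the adjusted p 0.0203. KLF5 (0.94 ± 0.272), KLF13 (0.87 ± 0.237) and KLF3 (0.59 ± 0.201) also had groups that did not overlap, with limma adjusted p-values of 0.0987, 0.0855 and 0.148.

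The calls in calcium were close to the threshold. Without the filter on low values none of the 3 was called (limma, adjusted p = 0.0518 for KLF6, 0.0978 for KLF4 and 0.0908 for KLF10). Leaving out 1 library at a time, KLF6 was called in 5 of 6 fits, KLF4 in 4 of 6 and KLF10 in 2 of 6, and the log2 fold changes ranged from 3.31 to 3.70, 2.24 to 2.72 and 1.02 to 1.23. Without control replicate 1 none of the 3 was called by limma (adjusted p = 0.056 for KLF6, 0.0776 for KLF4 and 0.106 for KLF10), and without control replicate 2 KLF6 was called but KLF4 (0.0666) and KLF10 (0.0736) were not. KLF10 was also not called without control replicate 3 (0.0539) or calcium replicate 2 (0.0764).

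With cadmium, no KLF gene was called by limma, while 5 of 9 had an unadjusted p under 0.05, as did 25.9% of all genes. Few genes were called at all, 0.15% of those tested. For 4 of 9 members the cadmium libraries were all above the control, which held for 17.7% of all genes. KLF5, a factor of proliferating epithelial cells, was at 1.22, 1.18 and 1.66 FPKM in the control and at 4.79, 5.03 and 2.91 FPKM with cadmium. The groups did not overlap and the log2 fold change was 1.56 ± 0.280 (SE; limma, adjusted p = 0.0642). KLF10 was at 7.62, 13.2 and 8.47 FPKM with cadmium, again above all control libraries, with a log2 fold change of 1.13 ± 0.242 (SE; limma, adjusted p = 0.0756). KLF9, a target of glucocorticoid and thyroid hormone receptors, was at 1.86, 2.18 and 2.20 FPKM against 1.05, 0.970 and 0.842 FPKM in the control (1.05 ± 0.205, adjusted p = 0.0688).

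KLF4 with cadmium was at 6.79, 13.0 and 14.9 FPKM, which overlapped the control, and its log2 fold change was 1.01 ± 0.368 (SE; limma, adjusted p = 0.159). KLF6 was split in the same way, at 9.83 FPKM in the first cadmium library and at 27.9 and 30.3 FPKM in the others. In both genes the first cadmium library lay in the range of the control. Without cadmium replicate 1, KLF6 had a log2 fold change of 1.53 (limma, adjusted p = 0.0352), KLF10 of 1.28 (0.0426) and KLF9 of 1.12 (0.0439), so 3 members were called, but so were 1605 of the 14686 genes in place of 22. In a fit over all 7 groups, KLF5, KLF10 and KLF9 were among 1026 genes called, and with limma-voom KLF5 and KLF9 among 508.

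A direct comparison of the metals put KLF6 higher with calcium than with cadmium, by 2.46 ± 0.446 on the log2 scale (SE; limma, adjusted p = 0.0473). KLF6 was the only member of the 9 called, where 1.59% of all genes were called higher and 2.44% in either direction. For 3 of 9 members, KLF2, KLF4 and KLF6, all calcium libraries were above those of cadmium, and for 15.5% of all genes. The call was lost whichever of the 6 libraries was left out (adjusted p 0.0516 to 0.168) and without the filter on low values (0.19). KLF4 differed by 1.48 ± 0.370 with groups that did not overlap (limma, adjusted p = 0.0859). For KLF5 the direction was the opposite, lower with calcium by -0.61 ± 0.317, and those groups overlapped.

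With GSK4716, the agonist of the receptor, no KLF gene was called by limma, and 3 of 9 had an unadjusted p under 0.05. No gene of the table was called in this comparison (0%, with 16.4% at an unadjusted p under 0.05), and limma-voom called 89 genes and none of the 9 members. The GSK4716 libraries were all above the control for 5 of 9 members and for 10.7% of all genes. KLF6 was at 20.7, 14.6 and 33.9 FPKM, all above the control, with a log2 fold change of 1.11 ± 0.350 (SE; limma, adjusted p = 0.224). KLF4 was at 8.50, 11.1 and 10.0 FPKM, also above all control libraries (0.85 ± 0.247, adjusted p = 0.203). KLF9 was at 1.69, 2.39 and 1.83 FPKM (0.97 ± 0.196, adjusted p = 0.153). KLF2 was at 29.3, 17.7 and 114.6 FPKM, so 1 library was far above the other two, as in the control.

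With DES alone, KLF10, KLF11 and KLF5 rose the most and KLF3 fell. KLF10 was at 35.7, 40.4 and 55.2 FPKM with DES against 3.80 to 4.90 FPKM in the control. The ratio of means was 10.2 and the log2 fold change 3.30 ± 0.203 (SE; limma, adjusted p = 0.000277). KLF11, its closest relative in the family and also a SIN3A-binding repressor, was at 17.6, 18.4 and 21.9 FPKM against 4.56, 5.76 and 7.21 FPKM (1.73 ± 0.204, adjusted p = 0.00223). KLF5 was at 3.49, 5.87 and 7.38 FPKM and rose by 1.92 ± 0.313 on the log2 scale (SE; limma, adjusted p = 0.00618).

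KLF4 rose with DES as well, to 9.19, 12.2 and 11.2 FPKM (log2 fold change 0.99 ± 0.256, limma, adjusted p = 0.0281). KLF9 was at 1.58, 2.27 and 1.70 FPKM (0.88 ± 0.257, adjusted p = 0.0413). KLF3, the CtBP-dependent repressor, fell to 3.35, 3.59 and 2.40 FPKM from 8.85, 9.10 and 9.49 FPKM (-1.55 ± 0.196, adjusted p = 0.00278). KLF6 was within the control range at 8.74, 10.0 and 9.25 FPKM (-0.10 ± 0.222, adjusted p = 0.751). For KLF2 and KLF13 the groups overlapped and the log2 fold changes were -0.61 ± 0.531 and -0.61 ± 0.315.

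With DES, 5 of 9 members were called higher and 1 lower, where 16.7% of all genes were called higher and 12.9% lower. In either direction 29.6% of the genes tested were called with DES. Among the luminal markers, FOXA1 (-1.17) and GATA3 (-1.11) fell and TFF3 (1.39) rose with DES, and their part in the KLF values was not tested. The calls of KLF10, KLF11, KLF5 and KLF3 held whichever of the 6 libraries was left out, whereas KLF4 was called in 2 of 6 such fits and KLF9 in 1 of 6. The limma adjusted p of KLF4 was 0.0686 to 0.0949 without control replicate 1 or 2 or DES replicate 2 or 3, and that of KLF9 was 0.0605 to 0.126 without any control library or DES replicate 2 or 3. KLF13 was called lower without DES replicate 3 (-0.89, 0.046). With values scaled by total fragments, KLF4 and KLF9 were not called either (chosen after seeing the data), nor were they without the filter on low values.

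**Figure D2:**
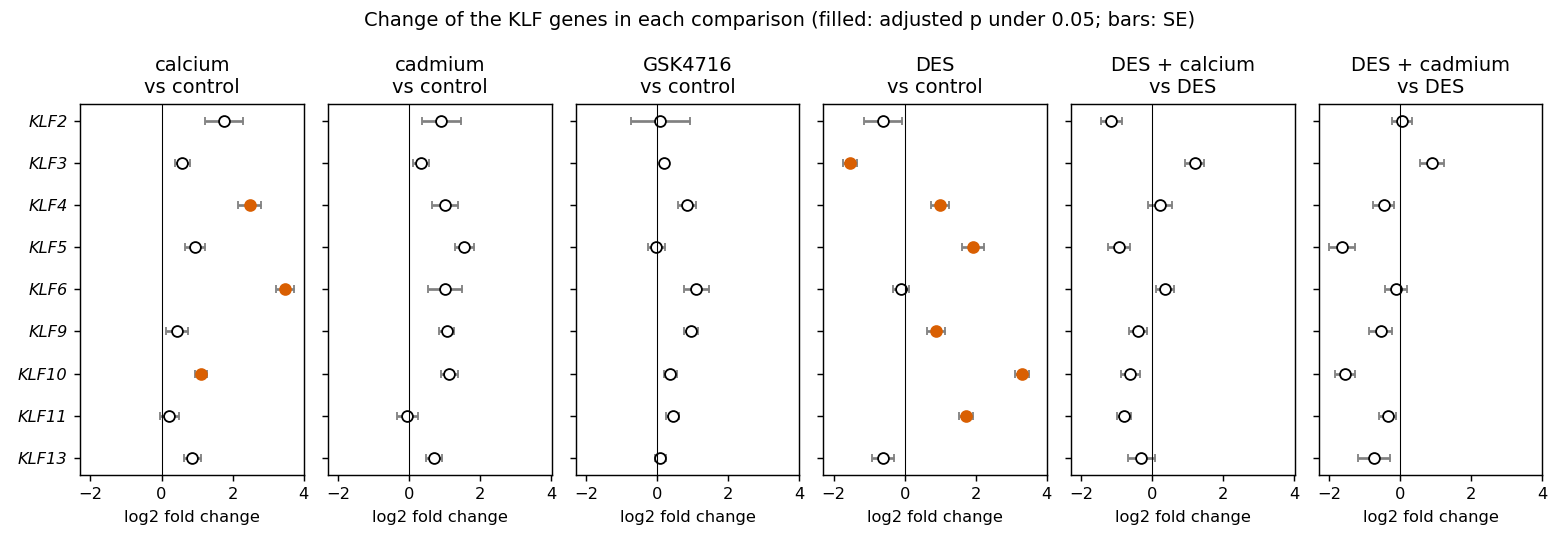
Log2 fold change on log2(FPKM + 0.1) (horizontal axes, shared scale) of each KLF gene in 6 comparisons; bars are SE and filled points have a limma adjusted p under 0.05. In calcium 3 points are filled and in DES 6, with KLF6 and KLF4 far right in calcium and KLF10 far right in DES.

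With DES present, calcium no longer separated KLF6 or KLF4 from their partner group. With DES and calcium, KLF6 was at 12.6, 16.5 and 8.45 FPKM and KLF4 at 12.7, 19.5 and 7.89 FPKM, and both overlapped DES alone. The log2 fold changes against DES were 0.37 ± 0.256 for KLF6 and 0.21 ± 0.334 for KLF4 (SE; limma, adjusted p = 0.55 and 0.798). None of the 9 members was called by limma in this comparison, where 0.136% of all genes were, and 4 of 9 had an unadjusted p under 0.05, as did 13.2% of all genes. Libraries did not overlap for 1 member that was higher, KLF3, and 4 that were lower, against 7.84% and 12.1% of all genes. KLF2 was at 9.58, 8.98 and 13.9 FPKM, below DES alone (-1.16 ± 0.299, adjusted p = 0.234). KLF3 was at 7.52, 8.85 and 5.46 FPKM, above DES alone (1.19 ± 0.261, adjusted p = 0.194).

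The test of the difference itself, the effect of calcium with DES minus its effect without, called 5 of 9 members, all negative. In comparison, 2.38% of all genes were called negative and 3.63% in either direction. The interaction was -3.10 ± 0.373 for KLF6 (SE; limma, adjusted p = 0.00336), -2.91 ± 0.629 for KLF2 (0.032) and -2.28 ± 0.485 for KLF4 (0.0308). It was -1.87 ± 0.416 for KLF5 (0.0342) and -1.74 ± 0.320 for KLF10 (0.0175). For KLF3 it was positive, 0.61 ± 0.333, and did not pass (0.340).

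Without the filter on low values the interaction of KLF6 alone was called. With the filter, that of KLF6 was called whichever of the 12 libraries was left out, and that of KLF10 in 11 of 12 such fits, the exception being without control replicate 1 (limma adjusted p = 0.0537). KLF2 and KLF4 were called in 5 of 12 and KLF5 in 3 of 12, with limma adjusted p-values up to 0.0838, 0.083 and 0.0932. All 3 of these calls were lost without control replicate 1 or 2, DES replicate 3 or DES_calcium replicate 1. Those of KLF2 and KLF5 were also lost without calcium replicate 1 or DES_calcium replicate 2, those of KLF2 and KLF4 without calcium replicate 2, those of KLF4 and KLF5 without DES replicate 2 or DES_calcium replicate 3, and that of KLF5 without calcium replicate 3. The comparisons of calcium, cadmium, GSK4716 and DES share the same control libraries, those of both combinations share the DES libraries, and the time with DES differed by 3 h between DES and its combinations.

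With DES and cadmium, KLF10 was at 11.1, 18.5 and 15.3 FPKM and KLF5 at 1.31, 1.74 and 1.94 FPKM, all below DES alone. The log2 fold changes were -1.55 ± 0.278 for KLF10 and -1.64 ± 0.362 for KLF5 (SE; limma, adjusted p = 0.117 and 0.181). None of the 9 members was called against DES by limma, where 0.266% of all genes were, with 3 of 9 at an unadjusted p under 0.05, as were 10.4% of all genes. Libraries did not overlap for 1 member that was higher, KLF3, and 3 that were lower, against 5.38% and 10.9% of all genes. KLF2 was at 24.8, 26.0 and 24.0 FPKM and overlapped DES alone. KLF4 was at 8.09 ± 2.61 FPKM (SD, n = 3) and also overlapped it.

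The interaction of cadmium with DES called KLF5 (-3.20 ± 0.456) and KLF10 (-2.68 ± 0.380), both with a limma adjusted p of 0.0138, where 0.94% of all genes were called negative and 1.18% in either direction. Both genes were higher with cadmium than in the control and lower with DES and cadmium than with DES. KLF10 was called in 10 of 12 fits with 1 library left out and KLF5 in 9 of 12 (adjusted p up to 0.0524 and 0.0563). The libraries that decided them were control replicate 1 and DES replicate 2 for both, and control replicate 2 for KLF5 (0.0505). KLF9 (-1.59 ± 0.351, limma adjusted p = 0.0555) did not pass, nor did KLF4 (-1.47 ± 0.482, 0.141).

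**Figure D3:**
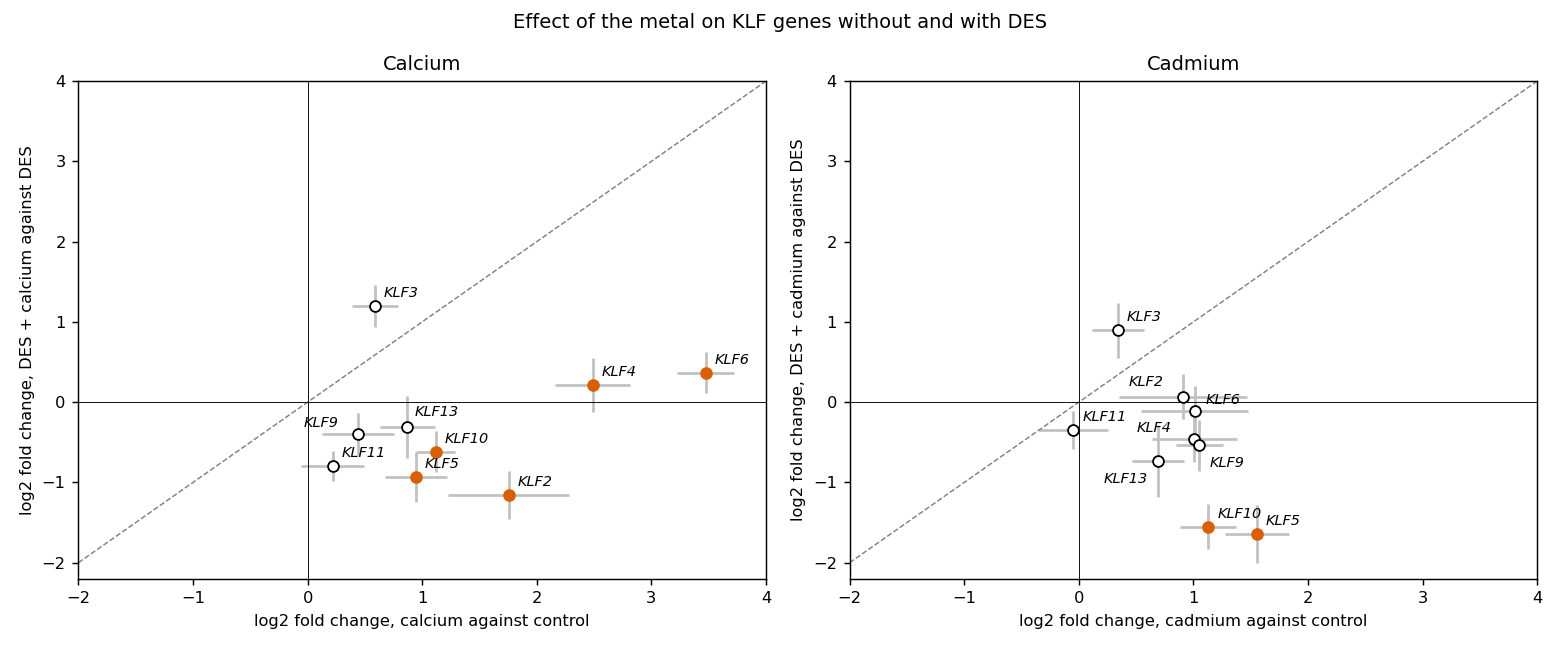
Log2 fold change of each KLF gene with the metal against control (horizontal) and with DES and the metal against DES (vertical), for calcium (left) and cadmium (right); bars are SE, the dashed line marks equal effects, and filled points have an interaction with a limma adjusted p under 0.05. Except for KLF3, the members lie below the dashed line in both panels, with KLF6 and KLF4 far right in calcium and KLF5 and KLF10 lowest in cadmium.

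The orders of the groups differed between members. For KLF4 the highest mean was in calcium (31.9 ± 10.8 FPKM, SD, n = 3), and no library of another group reached the calcium libraries. The means then ran from DES with calcium (13.4 ± 5.82) through cadmium (11.6 ± 4.24), DES (10.9 ± 1.54), GSK4716 (9.88 ± 1.30) and DES with cadmium (8.09 ± 2.61) to the control (5.59 ± 1.81), and each neighbour in this run overlapped the next. For KLF6 the order below calcium was GSK4716, cadmium, DES with calcium, control, DES and DES with cadmium, again with overlap between all neighbours.

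For KLF10 the order was DES (43.8 ± 10.2 FPKM), DES with calcium (28.8 ± 8.46), DES with cadmium (15.0 ± 3.75), cadmium (9.77 ± 3.01), calcium (9.49 ± 1.42), GSK4716 (5.68 ± 1.19) and control (4.31 ± 0.552). In that order, DES with calcium did not overlap DES with cadmium, and calcium, GSK4716 and control did not overlap each other. KLF11 had DES (19.3 ± 2.30 FPKM), DES with cadmium (15.4 ± 3.73) and DES with calcium (11.2 ± 2.26) with higher means than the groups without DES, although 1 calcium library (9.28) was above the lowest library of DES with calcium (9.26). KLF3 had DES (3.11 ± 0.630 FPKM) below all libraries of the other groups. KLF13, a repressor of the same SIN3A-binding group as KLF9, had its lowest means in the groups with DES, down to 0.631 ± 0.261 FPKM with DES and cadmium.

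The summed level of the 9 genes was 83.8 ± 43.0 FPKM (SD, n = 3) in the control and 308 ± 40.2 FPKM with calcium. It was 142 ± 44.1 FPKM with cadmium, 116 ± 62.3 with GSK4716 and 119.7 ± 20.9 with DES. After DES, it was 89.0 ± 6.97 FPKM with calcium and 82.0 ± 8.84 FPKM with cadmium. KLF2 led in 14 of the 21 libraries, 11 of which had no DES, KLF10 in 6, all with DES, and KLF6 in 1 calcium library. KLF6 made up 13.1 ± 2.39% of the sum in the control and 36.9 ± 5.53% with calcium. KLF10 made up 5.97 ± 2.58% in the control and 36.4 ± 2.28% with DES. KLF4 made up 7.11 ± 1.75% in the control and 10.2 ± 2.40% with calcium.

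**Figure D4:**
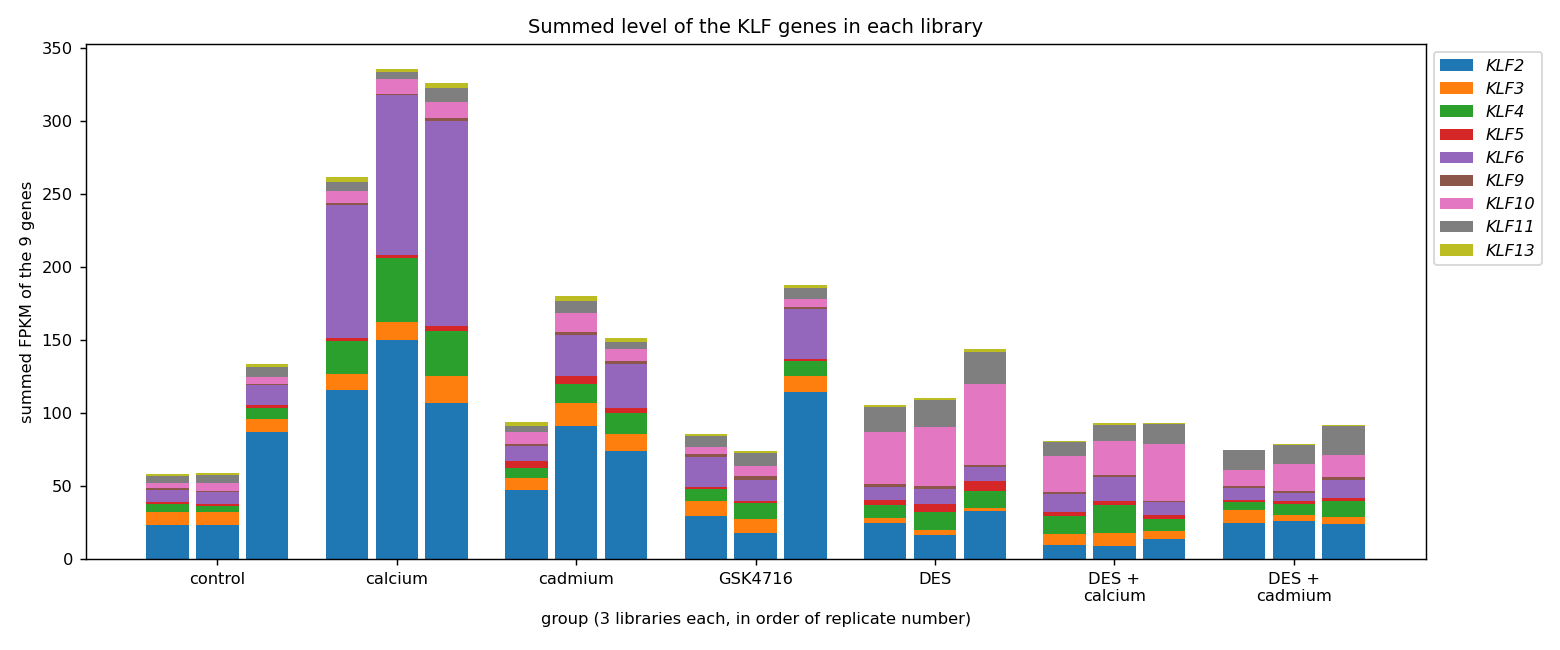
Summed FPKM of the 9 KLF genes (vertical axis) in each of the 21 libraries, with a colored segment for each gene. The calcium bars, at 262 to 336 FPKM, are the tallest and hold wide KLF2 and KLF6 segments, and the KLF10 and KLF11 segments are wide in the groups with DES.

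Over the 21 libraries, 25 of the 36 pairs of members had a positive Pearson's r of log2(FPKM + 0.1) and 11 a negative r (median 0.21). These are descriptions over libraries that fall into groups by treatment and share controls and depth. KLF4 and KLF6 had the highest r, 0.83, and after subtracting each group's mean it was 0.72. KLF10 and KLF11 had an r of 0.79 (0.64 after subtracting group means). KLF3 and KLF11 had the lowest, -0.75, which was 0.18 after subtracting group means.

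The genes whose pattern was most like that of KLF4 among 12236 other genes were ERRFI1 (r = 0.91), a feedback inhibitor of EGFR, TRIB1 (0.91), a pseudokinase, ZFP36 (0.91), which destabilizes mRNA, UGDH (0.91), an enzyme of UDP-glucuronate synthesis, and OCLN (0.90), the tight junction protein occludin. The mean of ERRFI1 in the control was 21.2 ± 6.48 FPKM (SD, n = 3), against 206.8 ± 57.8 in calcium and 25.2 ± 7.57 in DES. The mean of TRIB1 was 5.38 ± 0.769 FPKM in the control, 72.9 ± 24.0 in calcium and 10.8 ± 0.235 in DES. These genes have their peak in calcium, as KLF4 does.

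For KLF6 the nearest genes were HEG1 (r = 0.94) and LAMB3 (0.94), a laminin subunit, and for KLF2 they were YWHAH (0.92) and RHOB (0.90). HEG1 was at 0.374 ± 0.138 FPKM (SD) in the control and 6.65 ± 0.933 with calcium. It reached the mean of 1 FPKM needed for this ranking only through calcium, where KLF6 peaks, so its rank is not independent of that limit. For KLF10 they were SOCS1 (0.95), a suppressor of cytokine signaling, and the clock gene PER1 (0.94). SOCS1 was at 2.58 ± 0.492 FPKM in the control and 41.9 ± 12.7 with DES. For KLF11 they were CCDC28A (0.92) and the clock repressor NR1D1 (0.91), and NR1D1 was at 2.70 ± 1.13 FPKM in the control and 27.4 ± 12.9 with DES. The nearest genes were AGO2 (0.91) and ZNF354A (0.90) for KLF3, TRIB2 (0.95) and RNF24 (0.93) for KLF13, FAM84A (0.86) for KLF5, and GPBP1L1 (0.78) and FNIP1 (0.75) for KLF9.

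Of the 9 other KLF genes, 3 (KLF15, KLF16 and KLF17) were above the filter, and 0 of 3 were called in any of the 9 comparisons by limma. The share of all genes called in either direction was 29.6% with DES and at most 7.12% in the others, so 3 genes without a call show little. KLF15 and KLF17, with means of 0.821 and 0.548 FPKM over 21 libraries, were near the filter. KLF16, at 13.97 ± 1.91 FPKM in the control and 13.4 ± 2.27 with calcium, was the most abundant of the 3. All 3 had negative log2 fold changes with calcium (median -0.53) and with DES (median -0.41). The sum over these 9 genes was 16.0 ± 1.69 FPKM in the control, 15.7 ± 1.80 with GSK4716, 15.6 ± 1.49 with cadmium, 15.0 ± 2.55 with calcium and 12.8 ± 1.80 with DES. After DES it was 6.89 ± 0.454 FPKM with calcium and 10.7 ± 0.615 FPKM with cadmium, both below every control library. KLF16 was at 6.17 ± 0.486 FPKM with DES and calcium, below all libraries of DES alone (-0.86 ± 0.165, limma, adjusted p = 0.155). KLF15 was at 1.96 ± 0.801 FPKM with cadmium, above all control libraries (0.750 ± 0.0718 FPKM), with a log2 fold change of 1.19 ± 0.367 that did not pass (limma, adjusted p = 0.123).

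The SP factors share the zinc fingers and the GC box with the KLF family. Of 9, 5 were above the filter and 0 of 5 were called in calcium (median log2 fold change -0.30). The list counts that follow are to be read against the shares of all genes called, 4.6% higher and 2.53% lower with calcium, 16.7% higher and 12.9% lower with DES. With DES 2 of 5 SP factors were called, both lower, SP2 (-0.63 ± 0.182, limma, adjusted p = 0.0393) and SP1 (-0.57 ± 0.146, 0.0261). Of the 10 cofactors, SIN3B was called higher with calcium (0.84 ± 0.139, 0.0262), and 3 of 10 were called lower with DES, where 12.9% of all genes were. These were CTBP2 (-0.96 ± 0.220), SIN3A (-0.62 ± 0.192) and the acetyltransferase EP300 (-0.55 ± 0.160). Of 5 ubiquitin ligases that can mark KLF proteins for decay, 3 were called lower with DES (12.9% of all genes), BTRC (-1.98 ± 0.251), WWP1 (-1.10 ± 0.154) and SMURF1 (-0.86 ± 0.210), and 0 were called with calcium.

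Of the ERK5 and MEF2 genes, which act before KLF2 and KLF4 in endothelial cells, 4 of 6 were above the filter. In DES, MEF2D was the single gene of the 4 called, and it was higher (12.95 ± 5.78 to 40.1 ± 6.34 FPKM, log2 fold change 1.70 ± 0.317, limma, adjusted p = 0.00924). With calcium MEF2D was at 28.4 ± 1.67 FPKM, a log2 fold change of 1.22 ± 0.310 that did not pass (limma, adjusted p = 0.0729), and with DES and calcium it was at 29.9 ± 2.50 FPKM. Its interaction of calcium with DES was negative (-1.63 ± 0.365, adjusted p = 0.0342).

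Of 8 tested TGF-beta genes, which act before KLF10 and KLF11, 3 were called higher and 1 lower with calcium, against 4.6% and 2.53% of all genes. The ligand TGFB2 rose by 5.15 ± 0.739, the receptor TGFBR2 by 2.46 ± 0.497 and the mediator SMAD3 by 1.37 ± 0.131, while the inhibitor SMAD7 fell (-0.99 ± 0.169). TGFB2 was at 0.0666 ± 0.0341 FPKM (SD) in the control and 7.58 ± 5.19 with calcium, and TGFBR2 at 0.193 ± 0.0565 and 1.71 ± 1.06. TGFBR2 (mean 0.616 FPKM over 21 libraries) passed the filter only through its calcium libraries, so its call is not independent of the filter. With DES, where KLF10 and KLF11 rose, 0 of 8 were called higher and 2 lower (16.7% and 12.9% of all genes), the receptor TGFBR1 (-1.30 ± 0.364) and SMAD3 (-0.88 ± 0.182). Of 5 tested glucocorticoid receptor genes and targets, 3 were called higher with DES (16.7% of all genes), PER1 (4.28 ± 0.329), the phosphatase DUSP1 (3.39 ± 0.507) and TSC22D3 (0.80 ± 0.237). DUSP1 was also called higher with calcium (3.94 ± 0.528), alone in its list.

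Of 11 genes of the pluripotency network, 2 (MYC and TBX3) were above the filter. ESRRB had a mean of 0.0497 FPKM and at most 31 fragments in a library, and SOX2, NANOG and POU5F1 were below the filter too. TBX3 rose with calcium (1.30 ± 0.209, limma, adjusted p = 0.0246), and neither gene was called with DES.

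Of 12 tested genes known as KLF targets, 3 were called higher with calcium and 0 lower, against 4.6% and 2.53% of all genes. ATF3, a stress-induced factor, rose by 5.52 ± 0.625, the cell cycle inhibitor CDKN1A, a target of KLF4 and KLF6, by 3.15 ± 0.351 and E-cadherin (CDH1) by 1.04 ± 0.146. The median of the list was 0.65, where that of all genes was -0.01. With DES, ATF3 (4.39 ± 0.289) and CDH1 (2.01 ± 0.156) rose and thrombomodulin (THBD), a KLF2 target, fell (-0.61 ± 0.183), so 2 of 12 were higher and 1 lower, against 16.7% and 12.9% of all genes. The interaction of calcium with DES was called negative for 4 of 12 (2.38% of all genes), ATF3 (-5.48 ± 0.704), CDKN1A (-2.55 ± 0.539), CDH1 (-1.55 ± 0.220) and PDGFA (-1.16 ± 0.267), and positive for 0. With cadmium 0 of 12 were called by limma.

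KLF3 overlaps the antisense gene KLF3-AS1 (mean 0.912 FPKM, at most 4.34). The labels allow for libraries with or without strand, so reads of this pair may not be told apart.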

How the data were processed

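The values, as deposited by the authors, are FPKM for each gene in each library. The submitters' processing notes name HISAT2 2.0.5, featureCounts 1.5.0-p3 and GRCh38.p14. The deposited gene lengths, in bases, were used to recover fragments: dividing FPKM times length by the worth of 1 fragment gave whole numbers (within 0.01) for 100% of values. Groups were compared on log2(FPKM + 0.1) with limma 3.58.1 in R 4.3.3 (lmFit, then eBayes with a mean trend). The fit held only the groups compared and the 14686 genes whose mean over 21 libraries was at least 0.5 FPKM. Two-sided p-values were adjusted over all these genes (Benjamini-Hochberg), and genes under 0.05 were called. Fold changes on this scale understate those of low genes. The steps were tested on simulated data.

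The 9 members and the related lists were chosen with earlier results of these data known. Named beyond the members are the called genes of each list, up to 4 by size of change, and the genes of highest Pearson's r (5 for KLF4, up to 2 for others) with a mean of at least 1 FPKM. KLF15, KLF16, KLF17, MEF2D in calcium, ESRRB, SOX2, NANOG, POU5F1, MYC, MT-RNR1, MT-RNR2 and the luminal markers FOXA1, GATA3, TFF3, KRT8 and KRT18 were named after their values were seen. Whether equal replicate numbers pair libraries was checked from the correlation of deviations from group means, since the labels name no shared batch: all were over 0.1 when DES was compared with DES and calcium (0.132, 0.103 and 0.280) or DES and cadmium (0.472, 0.121 and 0.313), and at least 1 was not in the other comparisons. Alternatives were a pseudocount of 1, no filter, median-ratio scaling, all 7 groups in one fit, limma-voom on the recovered fragments, a replicate block, leaving out each library and, chosen after seeing the data, scaling by total fragments. Promoters are from RefSeq. Figures used Python with matplotlib. Results that need withheld items are not reported here.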

Additional observations from a re-analysis of the deposited data

Results flagged for a closer look

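For 5 KLF genes the effect of calcium differed between cells without and with DES, by the interaction in limma. The interaction was -3.10 for KLF6, -2.91 for KLF2, -2.28 for KLF4, -1.87 for KLF5 and -1.74 for KLF10 on the log2 scale. For KLF6 and KLF4 the log2 fold change with calcium was 3.47 and 2.49 without DES and 0.37 and 0.21 with it. For KLF2, KLF5 and KLF10 it was positive without DES (1.75, 0.94 and 1.12) and negative with it (-1.16, -0.93 and -0.62).

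For 2 KLF genes the effect of cadmium differed in the same way, -3.20 for KLF5 and -2.68 for KLF10. KLF5 had a log2 fold change of 1.56 with cadmium against control and -1.64 with DES and cadmium against DES. KLF10 had 1.13 and -1.55.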

How the results depend on the processing

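No value turned its direction past the threshold under any alternative run. Without the filter on low values, 0 of 9 KLF genes were called with calcium (3 as reported), 0 in calcium against cadmium (1) and 1 in the interaction of calcium with DES (5). More genes were tested there, and 60 were called with calcium in place of 1046. In calcium against cadmium 65 were called in place of 358, and in the interaction of calcium 208 in place of 533. With a replicate block, 1 KLF gene (KLF6) was called with calcium among 260 genes, 0 in calcium against cadmium among 49 and 5 with DES among 3117. In the interaction of calcium with DES 6 were called among 612 genes and in that of cadmium 2 among 291. The block left the KLF counts of the 2 comparisons whose numbers paired at 0, with 0 genes called in place of 20 and 39. The block costs degrees of freedom, and in the other comparisons the libraries share only a number. With limma-voom 5 KLF genes were called with calcium (KLF2 and KLF13 added) and 2 with cadmium, among 1570 and 508 genes. With all 7 groups in one fit, 3 KLF genes were called with cadmium among 1026 genes. Against DES, 1 (KLF3) was called in DES with calcium among 166 genes and 2 (KLF5, KLF10) in DES with cadmium among 603. In calcium against cadmium 2 (KLF6, KLF4) were called among 1563 genes. The interaction of KLF2 with calcium was then not called (limma, adjusted p = 0.074). With each library left out, 0 to 3 KLF genes were called with calcium, 0 to 3 with cadmium, 0 to 0 with GSK4716, 4 to 6 with DES, 0 to 0 in DES with calcium and in DES with cadmium against DES, 0 to 0 in calcium against cadmium, 1 to 5 in the interaction of calcium and 0 to 2 in that of cadmium with DES. Of all genes, these fits called 7 to 758 with calcium, 1 to 1605 with cadmium, 0 to 1 with GSK4716 and 1930 to 5078 with DES. They called 0 to 41 in DES with calcium and 0 to 96 in DES with cadmium against DES, and 4 to 37 in calcium against cadmium. In the interactions they called 181 to 830 for calcium and 15 to 410 for cadmium. The highest and lowest numbers of all genes called over the 7 alternatives, libraries left in, were 1570 and 60 with calcium, 1026 and 3 with cadmium (22 as reported), 89 and 0 with GSK4716 (0), 4637 and 2106 with DES (4340), 1563 and 49 in calcium against cadmium (358), 637 and 180 in the interaction of calcium (533) and 802 and 114 in that of cadmium (173). They were 166 and 0 in DES with calcium and 603 and 0 in DES with cadmium against DES. Scaling by total fragments moved the median log2 fold change of all genes from -0.01 to -0.13 with calcium and from 0.05 to -0.13 with DES (to -0.13 and -0.24 in DES with calcium and DES with cadmium against DES, and -0.24 in the interaction of cadmium), and the calls with calcium from 675 higher and 371 lower to 551 and 568, and with DES from 2447 and 1893 to 1853 and 2555. It kept KLF6, KLF4 and KLF10 called with calcium. Levels near 1 FPKM, as those of KLF9, KLF13 and KLF5 in some groups, rest on as few as 67 fragments.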
